A study of Mus musculus with 6 samples.

Results

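Rab GTPases are small membrane-bound switches, encoded here by 59 of the 57010 genes in the count table. Members were the protein-coding genes whose symbol is Rab followed by a number and at most a letter and a digit, so Rab-like genes and genes named for binding a Rab were not among them. RNA was measured in RAW 264.7 cells, a mouse macrophage line, in 6 samples. All 6 had been stimulated with lipopolysaccharide (LPS), a bacterial cell wall component and inflammatory stimulus, and were then given extracellular vesicles from tendon stem cells. The vesicles came from normoxic tendon stem cells in 3 samples (normoxic-EV) and from hypoxia-preconditioned ones in the other 3 (hypoxic-EV). Macrophages without vesicles or without LPS were not analysed here. The sources used here do not give the species of the tendon stem cells, the vesicle dose or the times. Each value therefore sets one vesicle treatment against the other in 1 stimulated cell line.

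A newly made Rab is given a lipid tail by geranylgeranylation and is placed on 1 kind of membrane, where an exchange factor loads it with GTP. In that state it recruits effectors such as tethers, motors and lipid kinases, until a GTPase-activating protein makes it hydrolyse the GTP and a GDP dissociation inhibitor takes it off the membrane. In macrophages, Rabs direct the uptake and maturation of phagosomes, the route of Toll-like receptors through endosomes, the secretion of cytokines and the delivery of vesicles to lysosomes.

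In macrophages given hypoxic-EV, 5 of 6 Rabs of the early endosome were called lower, by small amounts, beside 21.5% of all tested genes. Plasma membrane delivery had 3 of 6 called lower, and the endoplasmic reticulum and Golgi 4 of 11 tested, mostly by small amounts. The early endosome calls of Rab5c and Rab22a were lost when certain single libraries were left out. Increases lay mostly in less abundant Rabs of lysosomes and secretory granules, Rab7b, Rab27a, Rab29, Rab34, Rab3a and Rab44. Other Rabs of those compartments fell, namely Rab20 (log2 fold change -0.49), Rab32 (-0.21) and Rab37 (-0.82). By edgeR's quasi-likelihood test, 8 Rab genes rose and 16 fell at a Benjamini-Hochberg adjusted p under 0.05, 21 were tested and not called, and 14 had too few counts to be tested. Of all 13303 genes tested, 22.7% were called higher and 21.5% lower, 44.2% in all, beside 24 of 45 Rab genes (53.3%). The share of Rab genes called in either direction was thus near that of all genes. By direction, 8 higher and 16 lower was a less even split than that of all genes, and this difference was not tested. Groups did not overlap for 26 of the 45 Rab genes, and for 52.8% of all tested genes. The median log2 fold change of the 45 was -0.072, and 29 of the 45 were below 0, where the median of all tested genes was -0.001. Changes were small, with a median absolute log2 fold change of 0.29 over the 24 called Rab genes and 0.36 over all called genes. Log2 changes, or log2 fold changes, are hypoxic-EV against normoxic-EV throughout. The plot of change by compartment shows the called decreases clustered at small values and the widest error bars on genes of few reads.

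**Figure D1:**
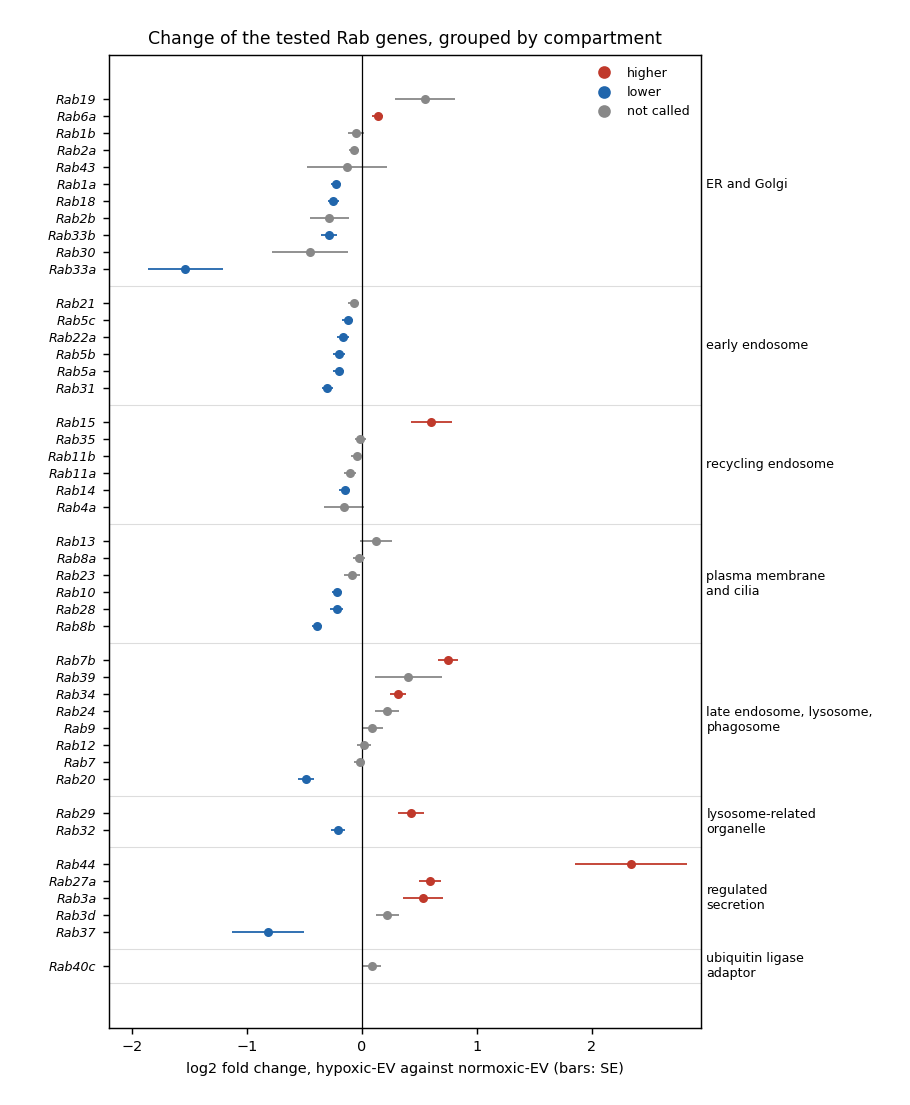
Log2 fold change (x axis, hypoxic-EV against normoxic-EV) of the 45 tested Rab genes, grouped by the compartment each is known for; points are edgeR estimates, bars are SE over 3 libraries against 3, and colours mark called higher, called lower and not called. Of the 6 early endosome genes, 5 lie at called values below 0, while Rab44 at 2.34 and Rab33a at -1.54 lie farthest out and have wide bars.

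Among the most abundant Rab genes, decreases outnumbered increases. Of the 14 with a mean of at least 100 CPM (TMM-scaled counts, relative to the library total), 1 rose and 8 fell, where 32.8% of all genes at that level were called higher and 28.8% lower, and 13 of the 14 were below 0. Of the 31 below 100 CPM, 7 rose and 8 fell, where the shares of all genes were 20.6% and 19.9%. The summed FPKM of the 59 genes, a level per gene length, was 1130, 1135 and 1108 in the normoxic-EV libraries and 1027, 1039 and 1039 in the hypoxic-EV libraries. Every hypoxic-EV library was below every normoxic-EV library, with a ratio of group means of 0.921. No p is given for such sums, since the members were chosen with earlier results of these data known.

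**Figure D2:**
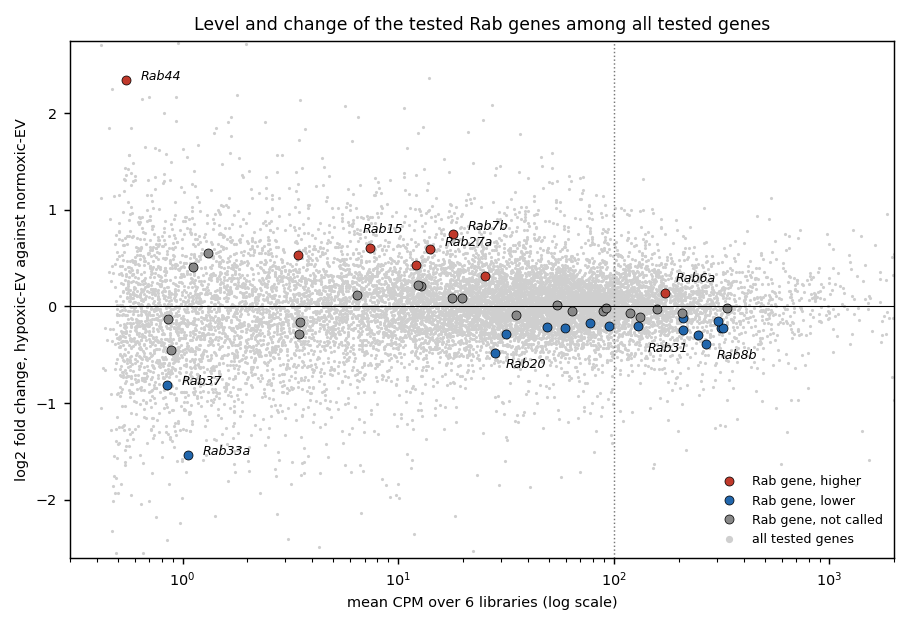
Mean level over the 6 libraries (x axis, TMM-scaled CPM, log scale) and log2 fold change (y axis) of the 45 tested Rab genes, drawn over all 13303 tested genes in grey; the dotted line marks 100 CPM. Right of that line 13 of 14 Rab genes lie below 0, and the Rab genes of largest change, Rab44 and Rab33a, lie near 1 CPM.

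Some facts of the libraries bear on every value. Library totals ran from 16751665 to 23422328 counts, and a count of 3, the limit that a count of 0 allows, was 0.129 to 0.179 CPM, covering counting error only. Nothing in the labels says that replicates were separate cultures, so the p-values reflect only how these libraries spread, and that spread may be technical. Of 10 macrophage markers, 9 exceeded 20 CPM in each library and Mertk was under 1 CPM. Their summed level was 10417 to 10852 CPM in normoxic-EV and 8449 to 8845 CPM in hypoxic-EV, most of it Lyz2. Markers of this list moved in both directions: Lyz2 (-0.38) and Adgre1 (-0.80) fell on the log2 scale by edgeR's test, and Csf1r rose (1.02, 174 to 352 CPM). All 13 tendon or stromal markers were under 1 CPM, with Tnmd, Col1a2, Col3a1, Thbs4 and Fmod at 0, and their sum was 1.20 to 2.39 CPM against 1.08 to 1.71 CPM. The sum of 5 neutrophil markers was 237 to 269 CPM against 95.95 to 119.6 CPM, nearly all of it S100a8, with Elane at 0. Dendritic cell markers summed to at most 3.25 CPM, lymphocyte markers to at most 0.826 CPM and epithelial markers to at most 0.133 CPM. The part of the macrophage and S100a8 shifts in the Rab values was not tested. In such bulk samples, fewer cells of a type and less RNA per cell cannot be told apart.

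Printed here are 5 promoters as the start-site sequence of members the results turn on: Rab29 and Rab32, paralogs called in opposite directions, Rab33a, the largest decrease, Rab27a, the largest increase among genes with an entry whose call was kept under every alternative, and Rab20, chosen after its values were seen. Each line gives the 250 bases before the RefSeq start (build GRCm38.p6, 5′ to 3′ on the gene's strand), and capitals mark ACGTG or GCGTG on either strand, the core letters of the site that hypoxia-inducible factors bind. Rab29 lies at chr1:131867027-131867276 on the plus strand, Rab32 at chr10:10558208-10558457 on the minus strand, Rab33a at chrX:48519035-48519284 on the plus strand, Rab27a (the first of its 2 starts) at chr9:73044560-73044809 on the plus strand and Rab20 at chr8:11478641-11478890 on the minus strand.
Rab29: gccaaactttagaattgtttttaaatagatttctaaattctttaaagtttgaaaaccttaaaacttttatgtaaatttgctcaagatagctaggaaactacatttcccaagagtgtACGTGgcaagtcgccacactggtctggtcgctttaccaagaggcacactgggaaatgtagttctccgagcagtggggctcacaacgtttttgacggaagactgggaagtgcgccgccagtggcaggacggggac
Rab32: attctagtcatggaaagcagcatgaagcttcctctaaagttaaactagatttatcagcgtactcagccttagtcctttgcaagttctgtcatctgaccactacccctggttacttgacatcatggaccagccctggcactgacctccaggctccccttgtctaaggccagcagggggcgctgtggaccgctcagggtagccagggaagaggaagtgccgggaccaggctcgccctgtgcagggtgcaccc
Rab33a: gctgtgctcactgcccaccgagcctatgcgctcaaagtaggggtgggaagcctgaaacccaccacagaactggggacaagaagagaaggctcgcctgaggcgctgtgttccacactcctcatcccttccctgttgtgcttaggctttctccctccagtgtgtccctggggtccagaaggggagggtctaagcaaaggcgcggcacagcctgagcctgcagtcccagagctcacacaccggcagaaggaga
Rab27a: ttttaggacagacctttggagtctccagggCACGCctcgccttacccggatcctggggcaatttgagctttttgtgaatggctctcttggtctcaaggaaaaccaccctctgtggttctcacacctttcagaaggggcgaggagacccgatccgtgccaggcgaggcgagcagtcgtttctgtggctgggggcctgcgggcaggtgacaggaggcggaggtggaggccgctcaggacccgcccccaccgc
Rab20: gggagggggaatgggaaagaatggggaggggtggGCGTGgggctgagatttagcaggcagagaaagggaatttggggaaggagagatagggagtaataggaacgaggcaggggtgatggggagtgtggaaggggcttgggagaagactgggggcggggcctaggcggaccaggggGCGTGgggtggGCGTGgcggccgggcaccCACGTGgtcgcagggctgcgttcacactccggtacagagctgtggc
Rab20 held 5 matches, of which 2 are the same CACGTG read on both strands, Rab29 and the Rab27a start shown held 1 each, and Rab32 and Rab33a held none. The other start of Rab27a, not shown, held 2, again a CACGTG read on both strands. At least 1 match stood in 26 of the 48 Rab promoters in the RefSeq table (54.2%), against 61.6% of the tested genes in it and 41.5% of all its genes. By call, 4 of 6 higher, 8 of 14 lower and 10 of 18 uncalled Rab genes had one. A match describes letters and is not a binding site.

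Among Rabs of the early endosome, 5 of 6 fell and none rose, where 21.5% of all tested genes were called lower and 22.7% higher. Rab5 isoforms control the fusion of endocytic vesicles with early endosomes, Rab22a and Rab31 act between early endosomes, recycling and the trans-Golgi network, and Rab21 acts in the endocytosis of integrins. Rab31 (chromosome 17, 65958724 to 66079747, GRCm39) had 273, 271 and 267 CPM in the normoxic-EV libraries and 210, 221 and 227 CPM in the hypoxic-EV libraries. The groups were well apart, and the log2 fold change was -0.30 (SE 0.0458, edgeR adjusted p = 1.82e-05). Rab5c, second of all Rab genes by FPKM, had 220, 222 and 209 CPM against 199, 190 and 209 CPM. The lowest normoxic-EV and the highest hypoxic-EV library nearly met, and the log2 change of -0.12 (SE 0.0487, edgeR adjusted p = 0.0440) was the smallest of the 24 calls. That call was lost without normoxic-EV replicate 1 (edgeR adjusted p = 0.141) or 2 (0.152), without hypoxic-EV replicate 1 (0.0847) or 2 (0.139) and without the filter on low counts (0.145). Rab5a (-0.20) and Rab5b (-0.20) fell with no overlap between groups, and their calls were kept under all 11 alternatives. Rab22a fell by 0.17 on the log2 scale, a call lost without normoxic-EV replicate 1 (edgeR adjusted p = 0.0752) or 2 (0.0710) or hypoxic-EV replicate 3 (0.0607). Rab21 was not called at -0.07 (95% interval -0.18 to 0.03), though without hypoxic-EV replicate 2 it was (-0.13, edgeR adjusted p = 0.0233). Summed FPKM of the 6 genes was 274 ± 3.96 in normoxic-EV against 242 ± 3.57 (SD, n = 3).

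Rabs of plasma membrane delivery, junctions and cilia gave 3 decreases and no increase among 6. Rab10, which carries vesicles from the trans-Golgi network and endosomes to the cell surface, had 340, 346 and 346 CPM in normoxic-EV and 296, 295 and 295 CPM in hypoxic-EV. Its libraries agreed closely within each group, and it fell by 0.22 on the log2 scale (SE 0.0429, edgeR adjusted p = 0.000286). Rab8b (chromosome 9, 66750946 to 66826969, GRCm39), whose product acts in exocytosis and actin-rich protrusions, had 296, 309 and 302 CPM against 220, 241 and 232 CPM. That gap, a log2 change of -0.39 (SE 0.0468, edgeR adjusted p = 7.38e-07), gave Rab8b the lowest adjusted p of the Rab genes that fell. Its paralog Rab8a was not called (-0.02, 95% interval -0.13 to 0.09). Rab28, a Rab of cilia, fell by 0.22, while Rab13, a Rab of cell junctions, was at 0.12 and Rab23, a ciliary Rab that restrains Hedgehog signalling, at -0.09, neither called. Summed FPKM of the 6 was 217 ± 1.08 and 185 ± 1.93 (SD, n = 3), a ratio of 0.855.

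Of 11 tested Rabs of the endoplasmic reticulum and Golgi, 4 fell and 1 rose (45.5%, beside 44.2% of all tested genes). Rab1a, which directs vesicles from the endoplasmic reticulum to the Golgi, had 345, 336 and 332 CPM in normoxic-EV and 278, 303 and 286 CPM in hypoxic-EV. All hypoxic-EV values were lower, a log2 change of -0.23 (SE 0.0462, edgeR adjusted p = 0.000443), and Rab1b was not called at -0.05 (95% interval -0.19 to 0.09). Rab18, a Rab of the endoplasmic reticulum and lipid droplets, fell by 0.25.

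Rab33a and Rab33b, Golgi Rabs that bind the autophagy protein Atg16l1, both fell. Rab33a (chromosome X, 47608162 to 47619109, GRCm39) had 1.14, 2.28 and 1.33 CPM in normoxic-EV and 0.590, 0.561 and 0.473 CPM in hypoxic-EV, from 88 and 32 reads in all. The second normoxic-EV library was highest and the groups did not overlap. The log2 fold change was -1.54 (SE 0.328, edgeR adjusted p = 0.000652), or -1.21 (edgeR adjusted p = 0.00941) without normoxic-EV replicate 2. Rab33b was more abundant and less changed, at 34.7 ± 1.10 against 28.4 ± 2.00 CPM (SD, n = 3), a log2 change of -0.29. The authors' deposited table, which lists 462 genes of an absolute log2 fold change above 1, holds only Rab33a (-1.55, adjusted p 0.00451) and Rab44 (2.42, adjusted p 0.00308) of the 59 Rab genes.

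Rab6a, which returns vesicles from endosomes to the Golgi and onward to the endoplasmic reticulum, was the only Rab of at least 100 CPM to rise, by 0.14 on the log2 scale (161, 164 and 168 CPM against 174, 190 and 178 CPM). That call was lost without normoxic-EV replicate 1 (edgeR adjusted p = 0.0683) or 2 (0.0885) or hypoxic-EV replicate 2 (0.0699), and the gene overlaps Mrpl48 on the other strand, whose reads were 13.3% of its own. Rab2a, of vesicle traffic between the Golgi and the endoplasmic reticulum, was at -0.07, and Rab30 (-0.45), Rab2b (-0.28), Rab43 (-0.13) and Rab19 (0.55), all under 4 CPM, were not called. Rab19 was called (0.70, edgeR adjusted p = 0.0484) without hypoxic-EV replicate 1. Rab2b shares its locus with Tox4 on the other strand, and Rab43 overlaps a same-strand transcript, Gm44423. The strand setting of the counting is not given, so reads of such overlapping genes cannot be told apart. Summed FPKM of the 13 was 276 ± 1.75 and 256 ± 1.79 (SD, n = 3).

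Of 6 tested recycling endosome Rabs, 1 rose and 1 fell (33.3%, beside 44.2% of all tested genes). Rab14, which acts between recycling endosomes, Golgi and phagosomes, fell by 0.15 on the log2 scale, a call lost without normoxic-EV replicate 1 (edgeR adjusted p = 0.0990) or 3 (0.0711) or hypoxic-EV replicate 1 (0.0854). Rab15, known from the recycling of the transferrin receptor, had 4.97, 4.67 and 7.60 CPM in normoxic-EV and 11.6, 7.55 and 7.83 CPM in hypoxic-EV. The third normoxic-EV library lay within the range of the hypoxic-EV libraries, so the groups overlapped. The log2 fold change was 0.61 (SE 0.177, edgeR adjusted p = 0.00841), and 0.40 without hypoxic-EV replicate 1, where the call was lost (edgeR adjusted p = 0.0766). Without normoxic-EV replicate 3 it was 0.89 (edgeR adjusted p = 0.000538). Fntb, on the other strand of Rab15 and with 294% of its reads, was not called (0.05). Rab11a (-0.11), Rab11b (-0.04), Rab35 (-0.01) and Rab4a (-0.16) were not called, Rab11a being called only without hypoxic-EV replicate 2 (-0.15, edgeR adjusted p = 0.0154).

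Late endosome, lysosome, phagosome and autophagosome Rabs moved in both directions, with 2 higher and 1 lower of 8 tested (37.5%, beside 44.2% of all tested genes). Rab7, which drives the maturation of late endosomes and phagosomes and had the highest FPKM of any Rab gene, had 335, 354 and 317 CPM in normoxic-EV and 326, 334 and 332 CPM in hypoxic-EV. Those ranges overlapped fully, and the log2 change of -0.02 (SE 0.0474, 95% interval -0.12 to 0.08) was not called (edgeR adjusted p = 0.784). Its paralog Rab7b (ENSMUSG00000052688, chromosome 1, 131616433 to 131643177, GRCm39), known in macrophages for carrying Toll-like receptors to lysosomes for degradation, had 13.5, 13.4 and 13.2 CPM against 20.8, 22.2 and 24.4 CPM. All hypoxic-EV libraries were higher, and at 0.75 (SE 0.0858, edgeR adjusted p = 3.91e-07) Rab7b had the lowest adjusted p of the 59. Its share of the FPKM of both genes went from 2.21 ± 0.103% to 3.69 ± 0.266% (SD, n = 3), so Rab7 still made up most of the pair.

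Rab20, Rab34 and the uncalled genes of this compartment are given here after their values were seen. Rab20, an endosome and phagosome Rab known to be induced in hypoxic cells, had 34.7, 32.7 and 31.1 CPM in normoxic-EV and 23.3, 22.1 and 24.8 CPM in hypoxic-EV. Every hypoxic-EV library was lower, a log2 change of -0.49 (SE 0.0731, edgeR adjusted p = 1.45e-05). By the labels, the hypoxia was that of the tendon stem cells, and any link of Rab20 to it was not tested. Rab34, which acts in lysosome positioning, phagosome maturation and cilia, had 22.7, 22.4 and 22.6 CPM against 28.1, 28.2 and 27.9 CPM. It rose by 0.31 (SE 0.0689, edgeR adjusted p = 0.000828), with a spread within groups far below the difference. Rab24 (0.21), Rab9 (0.09), Rab12 (0.02) and Rab39 (0.41) were not called. Rab24, an autophagy Rab, was called without normoxic-EV replicate 1 (0.31, edgeR adjusted p = 0.0393) or hypoxic-EV replicate 2 (0.27, 0.0473). The gene on its other strand, Prelid1, had 1689% of its reads and was itself higher (0.19). Rab39 overlaps a same-strand pseudogene, Rps6-ps3. Summed FPKM of the 11 genes was 199 ± 9.71 and 197 ± 0.826 (SD, n = 3), within the spread.

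**Figure D3:**
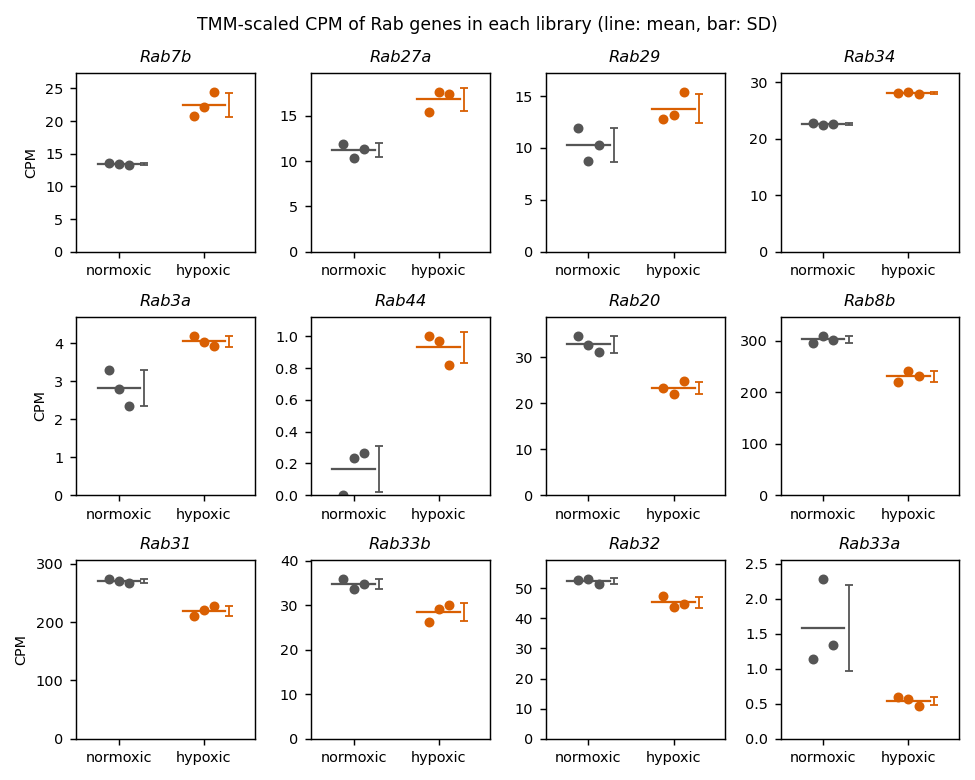
CPM (y axis, TMM-scaled, starting at 0) of 12 called Rab genes in each of the 3 normoxic-EV (grey) and 3 hypoxic-EV (orange) libraries; lines are means and bars are SD. The hypoxic-EV points are all above the normoxic-EV points for the first 6 genes and all below them for the last 6. That separation follows from the choice of genes: the 12 were picked from 24 called (8 higher, 16 lower), without Rab14 and Rab15, whose groups overlapped. Groups did not overlap for 52.8% of all tested genes. Rab44 and Rab33a lie at most at 2.28 CPM.

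Secretory Rabs were the group with the most increases, 3 of 5 tested, with 1 lower, where 22.7% of all tested genes were called higher and 21.5% lower. Another 4 secretory Rabs had too few counts to be tested. Rab27a (ENSMUSG00000032202, chromosome 9, 72952136 to 73004911, GRCm39), which docks secretory lysosomes, melanosomes and exosome-bearing endosomes at the plasma membrane, had 11.9, 10.4 and 11.3 CPM in normoxic-EV and 15.4, 17.6 and 17.5 CPM in hypoxic-EV. The groups did not overlap, and the log2 fold change was 0.59 (SE 0.0959, edgeR adjusted p = 3.77e-05). Its paralog Rab27b was at 0 in all 6 libraries. Rab3a, known from synaptic vesicles and also from lysosome exocytosis, had 3.29, 2.80 and 2.36 CPM against 4.19, 4.03 and 3.92 CPM. It was higher in all hypoxic-EV libraries, by 0.53 (SE 0.172, edgeR adjusted p = 0.0156), and lost the call without normoxic-EV replicate 3 (0.41, edgeR adjusted p = 0.0975) and with DESeq2 (adjusted p = 0.0572). Mpv17l2, on the other strand of Rab3a with 583% of its reads, was not called (-0.04). Rab3d, a Rab of secretory granules, was not called at 0.22 (95% interval 0.02 to 0.42, edgeR adjusted p = 0.0690).

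Rab44, a large Rab known from mast cell granules and osteoclasts, had the largest change on the fewest reads. Its counts were 0, 4 and 6 in normoxic-EV and 17, 19 and 19 in hypoxic-EV, or 0, 0.234 and 0.267 CPM against 1.003, 0.970 and 0.818 CPM. The groups did not overlap, and the log2 fold change was 2.34 (SE 0.487, 95% interval 1.33 to 3.36, edgeR adjusted p = 0.000508). Leaving out 1 library at a time gave 1.85 to 2.90. A pseudogene on its other strand, Rpl35a-ps3, held 83 reads beside 65 of Rab44 and was at -0.61, not called. Rab37, also a granule Rab, had 1.08, 0.934 and 1.24 CPM against 0.472, 0.817 and 0.559 CPM, from 62 and 37 reads. It was lower in all hypoxic-EV libraries, with a log2 change of -0.82 (SE 0.316, edgeR adjusted p = 0.0406), but Cd300lf on the other strand had 2771% of its reads. The call was lost without normoxic-EV replicate 1 (edgeR adjusted p = 0.0825) or 3 (0.159), without hypoxic-EV replicate 1 (0.124) or 3 (0.124), without the filter on low counts (0.0678) and with DESeq2 (0.153). Summed FPKM of the 9 secretory Rabs was 7.43, 6.69 and 7.19 in normoxic-EV and 9.47, 9.82 and 9.61 in hypoxic-EV, a ratio of 1.36. Of the other compartments, only the ubiquitin ligase adaptors had a lower sum.

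Rab29 and Rab32, paralogs that act on lysosomes and lysosome-related organelles, changed in opposite directions. Rab29 (ENSMUSG00000026433, chromosome 1, 131794962 to 131800625, GRCm39), which recruits the kinase LRRK2 to membranes, had 11.9, 8.70 and 10.3 CPM in normoxic-EV and 12.8, 13.2 and 15.4 CPM in hypoxic-EV. The hypoxic-EV libraries were higher, narrowly so against the first normoxic-EV library, and the log2 fold change was 0.43 (SE 0.115, edgeR adjusted p = 0.00467). Rab32, which serves melanosome formation and the defence against intracellular bacteria, had 52.8, 53.0 and 51.3 CPM against 47.4, 43.6 and 44.9 CPM. Those groups were apart, with a log2 change of -0.21 (SE 0.0585, edgeR adjusted p = 0.00621), and both calls were kept under all 11 alternatives. Rab29 supplied 23.8 ± 2.86% of the summed FPKM in normoxic-EV against 32.6 ± 2.61% (SD, n = 3), with their paralog Rab38 at 0 in every library. Rab29 lies 151.785 kb from Rab7b on chromosome 1 with 3 genes between, of which Slc41a1 was higher (0.21), Slc26a9 was not called and Pm20d1 had 1 read in all.

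Shares within paralog sets showed where a set's make-up shifted and where it did not. Rab8b supplied 65.3 ± 1.62% of the Rab8 FPKM in normoxic-EV and 59.3 ± 1.15% in hypoxic-EV, with no overlap. Rab5c supplied 66.2 ± 0.985% and 67.3 ± 1.27% of the Rab5 FPKM, and Rab1a 69.0 ± 1.08% and 66.3 ± 3.36% of the Rab1 FPKM (SD, n = 3), both within the spread. Rab31 was 86.1 ± 0.464% and 84.97 ± 0.770% of its pair with Rab22a. Rab33a was 12.2 ± 4.41% and 5.54 ± 0.923% of its pair with Rab33b. The sets of Rab2 and Rab6 were nearly 1 gene each, with Rab2a at 98.4% and 98.6%, and Rab6a at 99.96% and 99.99%. Reads of near-identical copies may be split by the counting, and the pseudogenes Rab7-ps1 (838 reads) and Rab11b-ps2 (574 reads), in the count table as rows of their own, were not called.

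**Figure D4:**
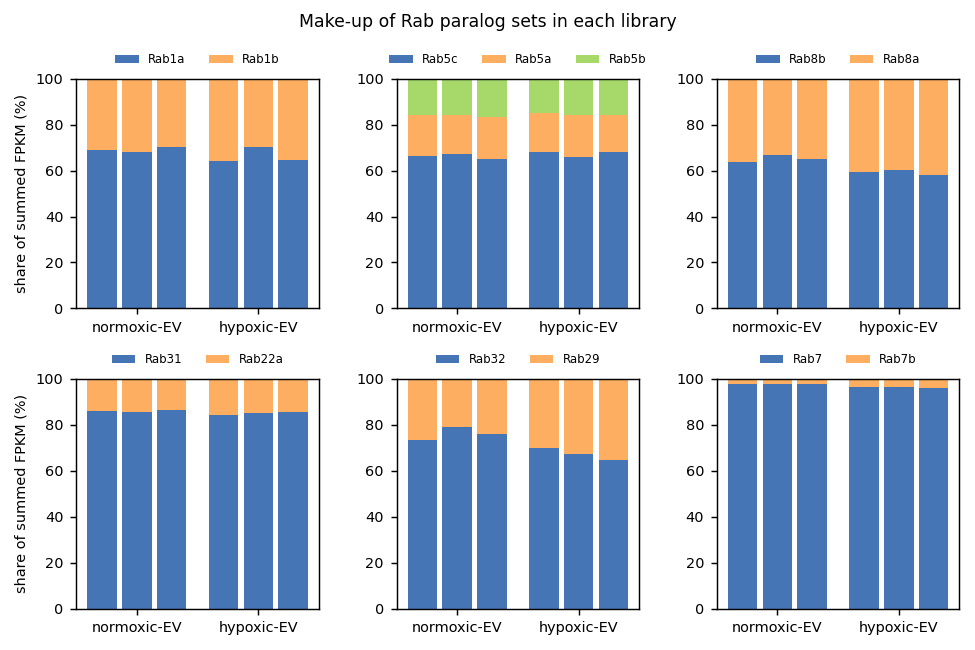
Share of the summed FPKM (y axis, percent) of each gene within 6 sets of Rab paralogs, 1 bar for each of the 3 normoxic-EV and 3 hypoxic-EV libraries. The shares of Rab32 and Rab29 and of Rab8b and Rab8a do not overlap between the groups. Those of Rab7 and Rab7b and of Rab31 and Rab22a do not overlap either, but shift by little. Shares in the Rab5 and Rab1 sets overlap.

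Other members gave little or no signal. Rab40c, an adaptor of a ubiquitin ligase, was not called (0.09). The 14 genes below the filter were Rab36, Rab3c, Rab27b, Rab38 and Rab9b, with no count in any library, and Rab3b, Rab25, Rab40b, Rab17, Rab39b, Rab6b, Rab4b, Rab26 and Rab42, each with a group mean of at most 0.497 CPM. Several of these are Rabs of epithelia or neurons, such as Rab25, Rab17 and Rab3c. Rab26 overlaps Traf7 on the same strand and had 3 reads in all.

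Genes that regulate Rabs or are recruited by them were read from 5 lists holding 141 genes, of which 125 were tested, 30 rose and 29 fell (47.2%, beside 44.2% of all genes). Machinery for prenylation, delivery and extraction fell in 5 of 9 cases and rose in 1. Arl6ip5, a membrane protein related to the prenylated Rab acceptor, fell by 0.46 (SE 0.0597, edgeR adjusted p = 2.36e-06). Gdi2, a GDP dissociation inhibitor, rose by 0.23 (476 ± 8.90 to 558 ± 24.8 CPM, SD, n = 3, edgeR adjusted p = 0.000408), with Tasor2 reads on its other strand at 12.8% of its own. Chm, a Rab escort protein, Rabac1 and Rabif also fell, Rabif with overlap between the groups (edgeR adjusted p = 0.0452). Chml of the same list was not called (0.003).

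Exchange factors, with 7 higher and 11 lower of 41, were led by Dennd10 (-0.55), Rin3 (0.81) and Dennd4a (-0.31). Of 32 tested GTPase-activating proteins, 9 rose and 5 fell, led by Tbc1d14 (0.67), an autophagy regulator, Tbc1d1 (0.50) and Tbc1d20 (-0.38). Among 40 tested effectors, 11 rose and 7 fell, led by Appl2 (0.61), Rab11fip1 (-0.54) and Mical3 (0.53). Each of these 9 genes had the lowest adjusted p values of its list among genes of at least 5 CPM, and each kept its call under all 11 alternatives. Called in either direction were 43.9% of exchange factors, 43.75% of tested GTPase-activating proteins and 45.0% of tested effectors. These shares were near the 44.2% of all tested genes, of which 22.7% were called higher and 21.5% lower. Median log2 fold changes of the lists were -0.01 for exchange factors, 0.02 for GTPase-activating proteins and -0.01 for effectors, beside -0.001 for all genes.

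**Figure D5:**
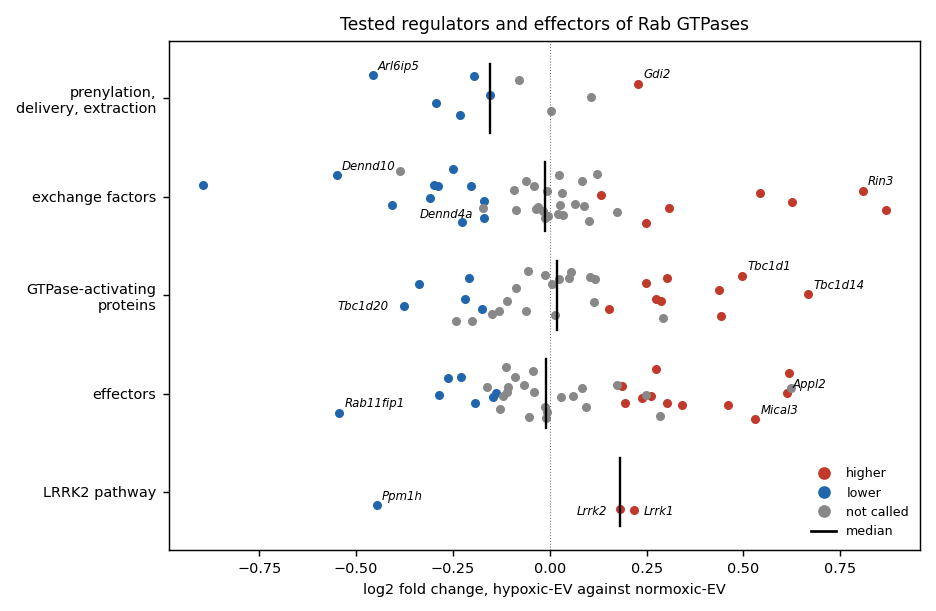
Log2 fold change (x axis) of the 125 tested regulators and effectors of Rab GTPases in 5 lists; each point is a gene, coloured as called higher, called lower or not called, and black lines are list medians. Each list has called genes on both sides of 0, and the prenylation, delivery and extraction genes lie mostly below it.

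For the Rabs named above, the listed partners moved as follows, where 44.2% of all tested genes were called in either direction. These sets are small, and whether their genes moved with their Rab was not tested. Of 6 genes listed for Rab1, 5 fell, as did Rab1a: its GTPase-activating protein Tbc1d20, the TRAPP exchange complex subunits Trappc1 (-0.41), Trappc3 (-0.20) and Trappc4 (-0.17), and the tether Uso1 (-0.14). Without normoxic-EV replicate 1 the last 3 were not called (edgeR adjusted p = 0.0616, 0.0774 and 0.0717). Trappc4 was also lost without hypoxic-EV replicate 2 (0.0601), and Uso1 without the filter and in each case where 1 library was left out other than hypoxic-EV replicate 2 (0.0616 to 0.140). Trappc4 lies opposite Rps25, which had 1574% of its reads. Of 13 genes listed for Rab5, 5 rose, the exchange factors Rin1 (0.87), Rin2 (0.31) and Rin3 (0.81) and the effectors Appl2 (0.61) and Rabep1 (0.26, opposite Nup88). Another 2 fell, the exchange factor Rabgef1 (-0.25) and the tether Eea1 (-0.19, with overlap between the groups), while the 3 Rab5 genes themselves fell. All 5 genes listed for Rab10 changed: Tbc1d1 (0.50), Tbc1d4 (0.44) and Dennd4c (0.25) rose, and Dennd4a (-0.31) and Dennd4b (-0.29) fell.

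For Rab7, 2 of 12 listed genes changed (16.7%, beside 44.2% of all tested genes), the GTPase-activating proteins Tbc1d5 (-0.34) and Tbc1d2 (0.27). The Tbc1d2 call was lost with DESeq2 (adjusted p = 0.0578) and without normoxic-EV replicate 1 (edgeR adjusted p = 0.131) or 2 (0.0599) or hypoxic-EV replicate 1 (0.0960) or 3 (0.0562). Of 11 genes listed for Rab27, 9 were below the filter and the other 2, Unc13d and Tbc1d10a, were not called. Hps1 and Hps4, which together form the exchange factor of Rab32, were not called. Of 6 genes listed for Rab11, 3 fell and none rose. For Rab6 (4 tested), Rab8 (4 tested) and Rab39 (2 tested), 1 listed gene rose and 1 fell in each case. For Rab35, 1 of 5 fell, and the 1 gene listed for Rab12 rose. None was called of the genes listed for Rab3 (2), Rab14 (2) and Rab4 (1). In the LRRK2 pathway, the kinase genes Lrrk2 (0.18) and Lrrk1 (0.22) rose and Ppm1h, the phosphatase that reverses LRRK2's phosphorylation of Rab8 and Rab10, fell (120 ± 4.60 to 88.1 ± 5.10 CPM, SD, n = 3; log2 change -0.45, edgeR adjusted p = 6.56e-07). With DESeq2, Lrrk2 (adjusted p = 0.0506) and Lrrk1 (0.0569) were not called, nor were they without normoxic-EV replicate 1 (edgeR adjusted p = 0.0576 for each) or 2 (0.0767 and 0.0527) or hypoxic-EV replicate 1 (0.0652 and 0.126), and Lrrk1 was also lost without normoxic-EV replicate 3 (0.0746).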

How the data were processed

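Poly(A) RNA of 6 samples of RAW 264.7 cells was sequenced in pairs on an Illumina HiSeq instrument, per the labels' protocols. Alignment and counting used HISAT2 and featureCounts, with DESeq2 and the build GRCm39 also listed, per the submitters' processing notes. The sources used here give no versions, annotation or strand setting. The authors deposited whole-number counts and FPKM values per gene, and a table of their own comparison with log2 fold changes and p-values. For all 26398 genes with a count, the deposited FPKM could be rebuilt from count, library total and 1 length per gene (relative tolerance 1e-06). The deposited table of normalized counts, a signal per gene, was not used for any result.

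The main test was the two-sided quasi-likelihood F-test of edgeR 4.0.16 (R 4.3.3), hypoxic-EV against normoxic-EV. It ran on the 13303 genes that filterByExpr kept (minimum count 10, minimum total 15), with TMM scaling and Benjamini-Hochberg adjusted p-values over those genes. Genes were called at an adjusted p under 0.05. The fit was tested on simulated data. Values after ± are SD unless SE is written, and bounds are 95% intervals. Libraries of a group differed by more than counting noise (chi-square per degree of freedom 2.72 to 5.84), and each was counted as 1 sample.

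The members and lists were chosen with earlier results of these data known. Full values are given for Rab genes called with an absolute log2 fold change of at least 0.5, for the 5 of highest mean FPKM and for called paralogs of opposite direction, and for the 3 genes of lowest adjusted p at 5 CPM or more in each list, beside the listed partners of these Rabs. Rab8b, Rab20, Rab33b and Rab34 were added after their values were seen. Of 142 listed regulators and effectors, 141 were found by symbol, and 1 gene that the rule names is not reported here. Alternatives were RLE factors, library totals, DESeq2 1.42.0, no filter on low counts, a replicate block, leaving out each library, and other scales for summed levels.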

Additional observations from a re-analysis of the deposited data

How the results depend on the processing

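The 24 calls among Rab genes came to 24 with RLE size factors, 24 with library totals alone, 22 with DESeq2 and 22 without the filter on low counts, and to 20 to 25 when 1 library was left out. Over the 11 alternatives, 17 calls were kept with the same sign, 5 of them higher (Rab7b, Rab27a, Rab29, Rab34 and Rab44) and 12 lower. The 7 calls lost in at least 1 alternative were those of Rab3a, Rab5c, Rab6a, Rab14, Rab15, Rab22a and Rab37, and no called Rab gene changed sign. Deviations of same-numbered libraries correlated at -0.0177 to -0.0156 and those of other pairs at -0.0377 to 0.0536, so the libraries share only a number and none correlated best with its own. With that replicate number as a block, 23 Rab genes were called, Rab5c being the one lost, and 5662 genes in all, against 5877 without it. Without the filter on low counts the median log2 fold change of the Rab genes was -0.055, over more genes than the -0.072 reported. The LRRK2 pathway count of 3 was 1 with DESeq2 and 1 to 3 with 1 library left out, and the cause was not tested. The summed level of the endoplasmic reticulum and Golgi Rabs had a log2 ratio of -0.13 by summed CPM and -0.11 by FPKM. Library depth limits Rab33a, Rab37 and Rab44, each with at most 120 reads in all, and the 14 genes below the filter, which were not tested. No value can be set against macrophages without vesicles.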
